A study of Mus musculus with 84 samples.

Results

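The natriuretic peptide system was followed through 7 genes, the peptide genes Nppa, Nppb and Nppc, the receptor genes Npr1, Npr2 and Npr3, and the protease gene Corin. They were found by symbol among the 49671 genes of the deposited count table, and all 7 were present. The study raised WT mice and ob/ob mice, which lack functional leptin because both copies of the leptin gene carry the ob change, on either normal (ND) or high-fat (HFD) food. From each of 12 mice, 7 tissues were taken at 20 weeks and sequenced as RNA, which gave 84 libraries, 3 for each tissue, genotype and diet. The groups are called WT ND, WT HFD, ob/ob ND and ob/ob HFD below; they share the tissue set and the time point, and sex and background strain are not given in the sources used here. Whether 20 weeks is an age or a time on diet is also not given there. Each mouse is a replicate, numbered 1 to 3 within its group, and the numbers restart in each group.

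Heart muscle cells secrete the peptides ANP (from Nppa, mainly in the atria) and BNP (from Nppb), which lower blood volume and pressure; CNP (from Nppc) acts locally, in bone, vessel wall and brain among other places. Corin is the membrane protease that cuts pro-ANP to the active hormone. ANP and BNP act through NPR1 and CNP through NPR2, both of which make cyclic GMP (cGMP) inside the cell, whereas NPR3 has no cyclase and removes all 3 peptides from the blood and tissue fluid. In fat cells the NPR1 signal is known to drive the breakdown of stored fat, and the balance of NPR1 to NPR3 is a common measure of how well a tissue can respond.

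In the mouse genome build GRCm38, Nppa (ENSMUSG00000041616) lies on chromosome 4 at 148000722 to 148002079 and Nppb (ENSMUSG00000029019) at 147985788 to 147987205, both on the plus strand and 13516 bases apart. Npr2 (ENSMUSG00000028469) lies on the same chromosome at 43631935 to 43651244, also on the plus strand. Nppc (ENSMUSG00000026241) lies on chromosome 1 at 86666291 to 86670571, Npr1 (ENSMUSG00000027931) on chromosome 3 at 90450591 to 90465866, Npr3 (ENSMUSG00000022206) on chromosome 15 at 11839896 to 11905674 and Corin (ENSMUSG00000005220) on chromosome 5 at 72300025 to 72504473, all on the minus strand. Of the 865 exonic bases of Nppa, 532 (61.5%) are also exonic in the antisense gene Gm13054. No strand option appears in the count table's header, so reads in the shared stretch cannot be assigned to one strand and the Nppa values are low by an unknown factor; Gm13054 itself held at most 8 counts in any library. The overlaps of Npr1 with Gm16048 (559 of 4783 bases), Npr2 with Gm12473 (266 of 4667) and Corin with Gm20647 (147 of 5400) were smaller, and those genes held at most 9, 43 and 2 counts.

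The active part of each peptide is a ring of 17 residues closed by a bond between 2 cysteines, and the coding stretches of the rings of Nppb and Nppc are shown because the receptors recognise them. They are given 5′ to 3′ on the coding strand, both from exon 2 in GENCODE vM21 transcripts (GRCm38), with the 2 cysteine codons in capitals.
Nppb, chr4:147986464-147986514, plus strand: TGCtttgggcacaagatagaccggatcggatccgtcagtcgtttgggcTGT
Nppc, chr1:86669667-86669717, minus strand: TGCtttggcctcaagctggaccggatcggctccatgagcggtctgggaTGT
Nppb and Nppc shared 40 of 51 bases (78.4%), and their 17 codons gave the same residue at 13 positions.

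The 250 bases before the RefSeq start of Nppa and Nppb (GRCm38.p6, plus strand) are shown because these neighbouring genes were the peptides measured in heart. Capitals mark GATAA or its reverse complement TTATC (GATA factors), AAGTG (NKX2-5) and GGAATG, the reverse complement of CATTCC (TEAD factors).
Nppa, chr4:148000472-148000721: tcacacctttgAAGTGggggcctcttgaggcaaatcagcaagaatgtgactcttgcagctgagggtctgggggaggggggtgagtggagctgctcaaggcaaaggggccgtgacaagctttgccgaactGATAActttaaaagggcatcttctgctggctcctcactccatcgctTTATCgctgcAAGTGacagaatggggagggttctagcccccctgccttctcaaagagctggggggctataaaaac
Nppb, chr4:147985650-147985899: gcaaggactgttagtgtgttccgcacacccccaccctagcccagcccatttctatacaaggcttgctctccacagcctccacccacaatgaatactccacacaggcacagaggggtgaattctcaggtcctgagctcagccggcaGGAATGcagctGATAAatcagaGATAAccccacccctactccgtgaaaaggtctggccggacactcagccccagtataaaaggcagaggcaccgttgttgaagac
Both strands of 300 bases, from 250 before to 50 after the start, were searched. For Nppb the gene as counted starts at 147985788, upstream of the RefSeq start. The marked Nppb stretches therefore lie inside the gene as counted. GATAA occurred 2 times in each window, at 121 and 75 bases before the Nppa start and at 94 and 83 before the Nppb start, and in 25.4% of all 32851 promoters. AAGTG occurred 2 times in Nppa (46.4% of promoters) and CATTCC 1 time in Nppb (14.7%). CACGTG (7.15% of promoters), TGACTCA (5.2%) and the CArG box of serum response factor (1.63%) were in neither window.

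Levels were compared between genes and tissues as TPM, a read share per unit of exon length, computed from counts and exon lengths. Nppb led the peptides in heart at 174 TPM on average over the 12 mice, against 0.644 TPM in hypothalamus and 0.382 TPM in aorta. In WT ND alone aorta (1.34 TPM) stood above hypothalamus (0.677 TPM), as it did over all mice when mitochondrially encoded transcripts were left out. Nppa was at 31.5 TPM in heart and 5.36 TPM in aorta, and Nppc was highest in hypothalamus (7.56 TPM) and hippocampus (7.30 TPM), whose WT ND ranges overlapped, followed by muscle at 1.17 TPM. All 3 peptide genes were at 0 in all 12 livers. Corin was at 32.6 TPM in heart and at 1.69 TPM or less elsewhere.

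Among the receptors, Npr3 reached 433 TPM in epididymal fat, 206 TPM in muscle and 119 TPM in aorta, but in the WT ND mice alone muscle (9.52 TPM) and aorta (6.38 TPM) were far below fat (550 TPM). The WT ND ranges of Npr3 overlapped between neighbours from muscle down through aorta, hippocampus and heart to hypothalamus. Npr1 was highest in fat (28.6 TPM) and aorta (23.5 TPM), then muscle (10.1), heart (6.94), hippocampus (4.31), with hypothalamus and liver lower still; the WT ND ranges of fat and aorta were 36.6 to 77.9 and 25.6 to 36.2 TPM and did not overlap. When mitochondrially encoded transcripts were left out of the scale, aorta stood above fat and heart above muscle for Npr1. In WT ND alone, Npr1 was also higher in heart (7.45 TPM) than in muscle (5.51 TPM). Npr2 averaged 31.5 TPM in hypothalamus, 25.2 TPM in fat and 8.89 TPM in aorta over the 12 mice, but in WT ND alone fat (52.1 TPM) stood above hypothalamus (31.8 TPM). Leaving out mitochondrially encoded transcripts also moved heart up to the place after hypothalamus.

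**Figure D1:**
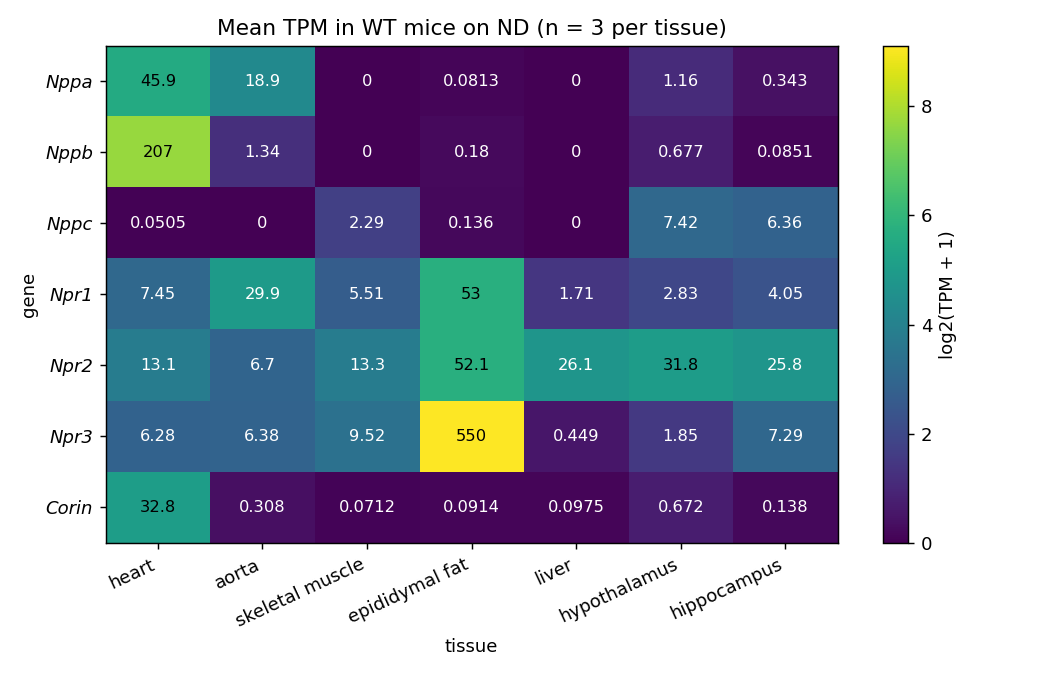
Mean TPM of each gene (vertical axis) in each tissue (horizontal axis) for the 3 WT ND mice, coloured by log2(TPM + 1). Npr3 in epididymal fat, at 550 TPM, and Nppb in heart, at 207 TPM, are the brightest cells.

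Library totals ran from 10499528 to 17040790 counts. Within a tissue, levels are CPM, a gene's share of the counts in a library, on library sizes scaled by edgeR's TMM method, and a gene counts as called where the adjusted p of edgeR's quasi-likelihood test (Benjamini-Hochberg over all genes tested in that tissue and contrast) was below 0.05. Differences are given on the log2 scale ± SE, with 3 mice per group. The p-values of edgeR set a difference against the spread between mice, estimated over the 4 groups of a tissue together. The comparisons on ND and on HFD, and the diet comparisons, share groups with each other. In these bulk samples fewer cells of a type and less RNA per cell cannot be told apart. In 1 WT HFD heart markers of atrial muscle were present, and in all aortas markers of fat, as shown beside their results.

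In heart, Nppb was lower in ob/ob mice. The WT ND hearts held 69.3, 58.3 and 135 CPM, the WT HFD hearts 121, 123 and 150 CPM, the ob/ob ND hearts 33.9, 42.8 and 79.9 CPM and the ob/ob HFD hearts 44.5, 35.02 and 25.4 CPM. On HFD every WT heart was above every ob/ob heart, while on ND the highest ob/ob heart lay above 2 of the 3 WT hearts. Averaged over the diets, Nppb fell by 1.32 ± 0.21 on the log2 scale, 2.50-fold (edgeR adjusted p = 0.00024). On HFD it was 3.75-fold lower (log2 difference -1.91 ± 0.30, edgeR adjusted p = 0.00066). On ND the difference of -0.74 ± 0.30 did not pass (edgeR adjusted p = 0.11), but passed without the third ob/ob ND heart (-1.19, edgeR adjusted p = 0.017). The test that the genotype difference depended on diet did not pass (-1.16 ± 0.42, edgeR adjusted p = 0.57).

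Nppb was the only 1 of 6 natriuretic genes called in heart averaged over diets, where 30.1% of all tested genes were called, and on HFD, where 17.2% were; Nppc was below the count filter. On ND, 0 of 6 were called in edgeR against 12.7% of all genes, with 2 at an unadjusted p below 0.05 and 0 called by DESeq2. HFD against ND gave 0 of 6 in WT hearts (0 at an unadjusted p below 0.05, 0 in DESeq2, background 0.256%) and 0 of 6 in ob/ob hearts (1 at an unadjusted p below 0.05, 0 in DESeq2, background 0.0219%). The dependence of the diet difference on genotype gave 0 of 6 (1 unadjusted, 0 in DESeq2), with 0.0% of all genes called.

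Nppa, the ANP gene, varied more between hearts of 1 group. Its values were 27.6, 11.8 and 24.9 CPM in WT ND, 43.1, 2.94 and 13.1 CPM in WT HFD, 1.94, 19.9 and 4.31 CPM in ob/ob ND and 15.2, 10.4 and 8.02 CPM in ob/ob HFD. The groups overlapped, and the log2 difference between genotypes of -1.07 ± 0.49 did not pass (edgeR adjusted p = 0.11). It passed without the second WT HFD heart (-1.33, edgeR adjusted p = 0.024) or the second ob/ob ND heart (-1.78, edgeR adjusted p = 0.016), and shrank to -0.40 (edgeR adjusted p = 0.53) without the first WT HFD heart. That first WT HFD heart, highest in Nppa, also held the atrial myosin light chains Myl7 at 164 CPM and Myl4 at 155 CPM and the atrial calcium pump regulator Sln at 63.7 CPM. The other 11 hearts held 0.167 to 2.23 CPM of Myl7 and at most 0.094 CPM of Sln. The summed 8 atrial markers were 348 to 360 CPM in WT ND, 341 to 820 in WT HFD, 403 to 521 in ob/ob ND and 449 to 532 in ob/ob HFD. The same 8 genes summed to 462 to 845 CPM in WT HFD hippocampus, so the sum does not measure atrial muscle alone. The part of atrial muscle in the Nppa values was not tested.

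Corin, which activates pro-ANP, ran from 80.01 to 128 CPM over the 12 hearts with all groups overlapping (log2 difference between genotypes -0.01 ± 0.10, edgeR adjusted p = 0.96). The receptors did not pass in heart either. Npr1 held 16.2 to 21.7 CPM, Npr2 27.8 to 35.2 CPM and Npr3 6.99 to 40.1 CPM, with log2 differences between genotypes of -0.11, -0.12 and 0.17 (edgeR adjusted p = 0.30, 0.13 and 0.72).

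**Figure D2:**
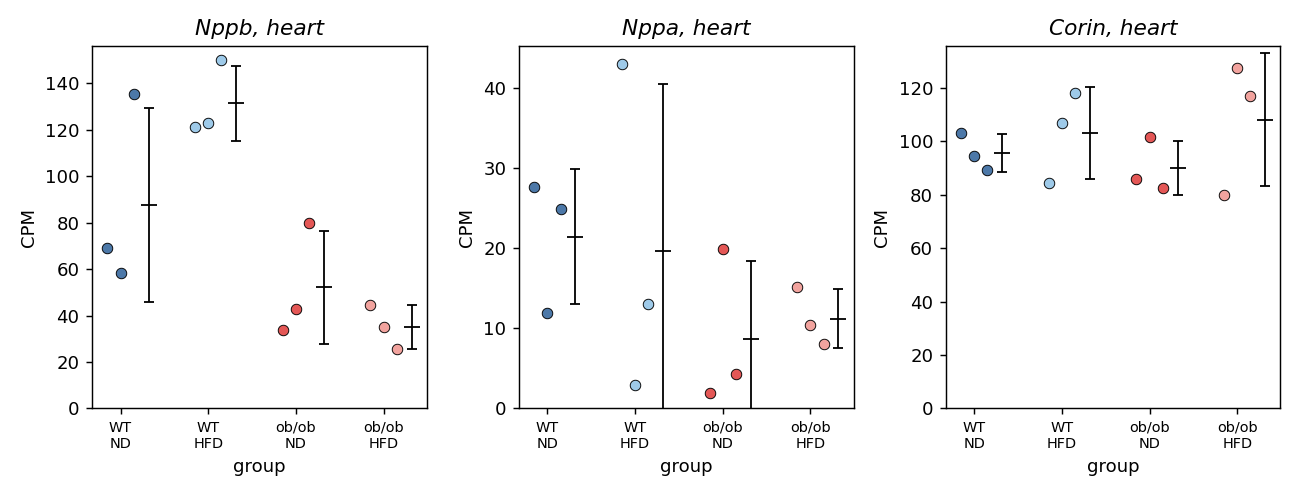
Heart CPM of Nppb, Nppa and Corin (vertical axes, from 0) in the 4 groups, 1 point per mouse, with mean ± SD beside the points (n = 3; bars that would pass below 0 end at the axis). Nppb on HFD is 121 to 150 in WT and 25.4 to 44.5 in ob/ob hearts, while Corin lies between 80.01 and 128 in all groups.

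Of 10 listed transcription factors and cofactors of Nppa and Nppb, all tested, 7 rose in ob/ob hearts averaged over diets and 0 fell, where 30.1% of all genes were called, with a median log2 difference of 0.33 against -0.01 over all genes. The 4 with the smallest p were Tbx5 (0.70 ± 0.09), Gata4 (0.51 ± 0.08), Mef2c (0.39 ± 0.06) and Gata6 (0.46 ± 0.07), with edgeR adjusted p from 5.0e-05 to 0.00026. These are transcription factors of heart development and of the adult muscle cell. Of 10 tested genes known to respond to load on the heart, 3 rose and 3 fell (median 0.03), again beside 30.1% of all genes. Acta1, the skeletal actin re-expressed under load, fell by 1.55 ± 0.21 (edgeR adjusted p = 7.1e-05) and Gdf15, a stress-induced cytokine, by 2.05 ± 0.31 (edgeR adjusted p = 0.00016). Ccn2, a matrix-associated growth factor, rose by 1.24 ± 0.19 (edgeR adjusted p = 0.00020) and Fhl1, a sarcomere-associated LIM protein, by 0.41 ± 0.05 (edgeR adjusted p = 4.4e-05).

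Of the processing and clearance genes, 3 of 5 were tested in heart, and all 3 were called, beside 30.1% of all genes. Mme, encoding neprilysin, which degrades the peptides, fell by 0.52 ± 0.09 (edgeR adjusted p = 0.00046), as did Pcsk6, the protease that activates corin, by 0.35 ± 0.08 (edgeR adjusted p = 0.0030). Furin, which cuts pro-BNP, rose by 0.36 ± 0.08 (edgeR adjusted p = 0.0029). In the list of 14 cGMP signalling genes, 13 were tested: Prkg1, the cGMP-dependent kinase, rose by 0.46 ± 0.12 (edgeR adjusted p = 0.010), the phosphodiesterase gene Pde5a fell by 0.61 ± 0.17 (edgeR adjusted p = 0.012), the cGMP exporter gene Abcc4 fell by 0.32 ± 0.12 (edgeR adjusted p = 0.048), and 10 were not called. That is 23.1% of the list, under the 30.1% of all genes.

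Other measures also differed between the hearts. The summed 8 cardiomyocyte markers were 41273 to 54107 CPM in WT and 46082 to 57965 in ob/ob hearts, with 3 of 8 higher in ob/ob, and the summed 8 macrophage markers were 430 to 569 CPM in WT and 282 to 418 in ob/ob hearts, with 3 of 8 lower. Short genes were lower as a class in ob/ob hearts: the median log2 difference was -0.14 over 915 genes with under 1000 exonic bases and 0.02 over genes with 4000 or more; Nppb has 781 and Nppa 865. The genes whose log2 CPM followed Nppb most closely over the 12 hearts, of 11184 compared, were Sf3b5 (r = 0.944, rho = 0.965), Eef1b2 (r = 0.936, rho = 0.972) and Rpa3 (r = 0.930, rho = 0.958). For Nppa they were Zbtb8os (r = 0.885, rho = 0.909), Bcl2l12 (r = 0.866, rho = 0.825) and Rhbdf1 (r = 0.818, rho = 0.776). The points of these correlations share their libraries and the genotype groups. The part of these measures in the Nppb difference was not tested.

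In epididymal fat, all 3 receptor genes were lower after HFD in WT mice, and both cyclase receptors were lower in ob/ob than in WT mice on ND. Npr1 held 78.96, 67.9 and 129 CPM in WT ND, 29.1, 35.01 and 57.7 CPM in WT HFD, 26.1, 41.7 and 29.1 CPM in ob/ob ND and 27.8, 26.3 and 32.8 CPM in ob/ob HFD. The 3 WT ND mice stood above all 9 others. Npr1 was 2.85-fold lower in ob/ob on ND (log2 difference -1.51 ± 0.29, edgeR adjusted p = 0.0016) and 2.27-fold lower after HFD in WT (-1.18 ± 0.29, edgeR adjusted p = 0.0047). Averaged over diets the genotype difference was -0.998 ± 0.207 (edgeR adjusted p = 0.0036), and on HFD, at -0.49 ± 0.29, it did not pass (edgeR adjusted p = 0.27).

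Npr2, the CNP receptor, showed the same separation of WT ND from the rest, with 98.5, 91.2 and 79.1 CPM in WT ND against 12.7, 15.5 and 30.3 CPM in WT HFD, 22.1, 36.7 and 32.7 CPM in ob/ob ND and 35.5, 25.2 and 25.4 CPM in ob/ob HFD. It was 4.58-fold lower after HFD in WT (-2.20 ± 0.30, edgeR adjusted p = 0.00010) and 2.93-fold lower in ob/ob on ND (-1.55 ± 0.29, edgeR adjusted p = 0.0012). The diet difference was not the same in the 2 genotypes (ob/ob minus WT 2.11 ± 0.41, edgeR adjusted p = 0.0024). Averaged over diets, the genotype difference of -0.50 did not pass in edgeR (adjusted p = 0.079) and passed without the first WT HFD mouse (-0.61, adjusted p = 0.027).

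Npr3, the clearance receptor, differed in pattern from the cyclase receptors. It held 1505, 1608 and 1118 CPM in WT ND, 191, 373 and 659 CPM in WT HFD, 1013, 1289 and 1710 CPM in ob/ob ND and 1351, 898 and 1040 CPM in ob/ob HFD. The WT HFD mice were below all others, and WT ND overlapped both ob/ob groups. Npr3 was 3.46-fold lower after HFD in WT (-1.79 ± 0.38, edgeR adjusted p = 0.0020), whereas ob/ob and WT on ND differed by -0.08 (edgeR adjusted p = 0.88). On HFD it was 2.69-fold higher in ob/ob (1.43 ± 0.38, edgeR adjusted p = 0.028), a call lost without the first or the second WT HFD mouse or the first or the third ob/ob HFD mouse (adjusted p up to 0.11). The diet difference was larger in WT (ob/ob minus WT 1.504 ± 0.525, edgeR adjusted p = 0.040), but this call was lost without any 1 of 7 mice: WT ND 1 or 2, WT HFD 2, ob/ob ND 1 or 2, or ob/ob HFD 1 or 3 (adjusted p up to 0.099). The genotype difference averaged over diets, 0.68, did not pass in edgeR (adjusted p = 0.065) and passed without the third WT HFD mouse (0.92, adjusted p = 0.0063).

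Only the 3 receptors passed the count filter in fat; the peptide genes and Corin were at or near 0. Called receptors numbered 3 of 3, all lower, for HFD in WT (58.9% of all genes called), 2 of 3 for genotype on ND (48.2%), 1 of 3 for genotype on HFD (17.6%), 1 of 3 for genotype averaged over diets (35.9%) and 2 of 3 for the dependence of the diet difference on genotype (40.1%). With backgrounds this high, shares of 3 genes say little about the receptors as a group. In ob/ob fat, HFD against ND gave 0 of 3 (0 at an unadjusted p below 0.05, 0 in DESeq2) and 0.0% of all genes.

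**Figure D3:**
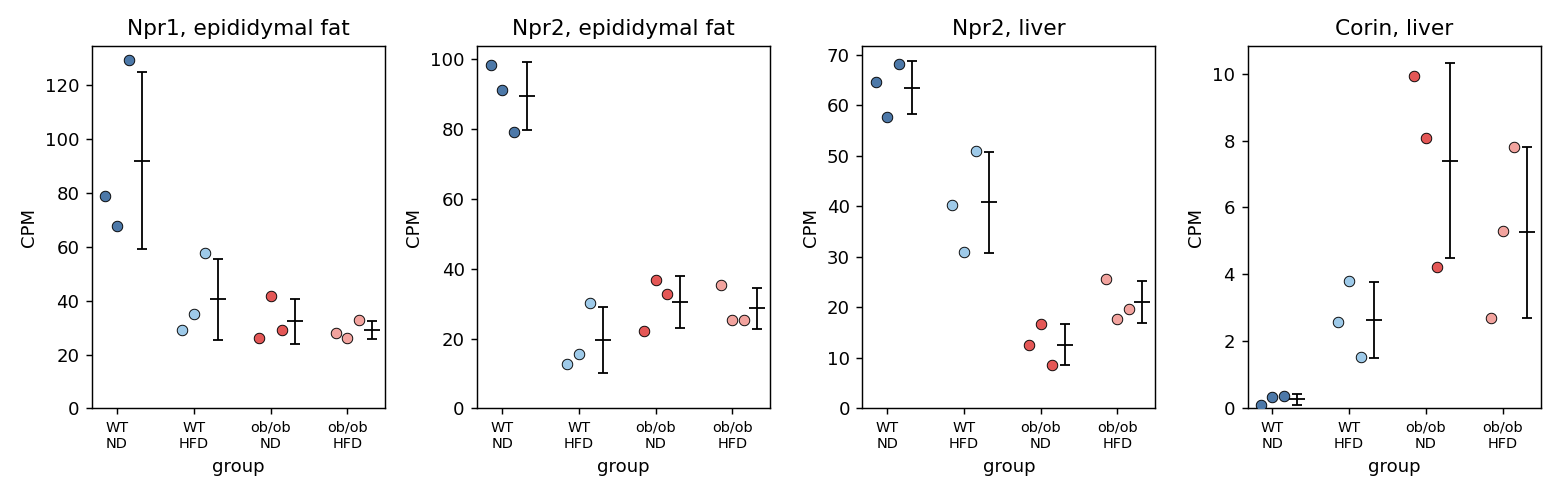
CPM (vertical axes, from 0) of Npr1 and Npr2 in epididymal fat and of Npr2 and Corin in liver for the 4 groups, 1 point per mouse, with mean ± SD beside the points (n = 3). The WT ND points stand apart in each panel: above the rest for Npr1 and Npr2, from 57.8 to 129, and below for liver Corin, at 0.380 or less.

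Cell type markers moved with these receptor values in fat. The summed 10 adipocyte markers were 36967 to 47656 CPM in WT ND, 4691 to 14640 in WT HFD, 16420 to 24479 in ob/ob ND and 18860 to 23898 in ob/ob HFD, and 9 of 10 fell after HFD in WT. The summed 8 macrophage markers were 1686 to 1800 CPM in WT ND, 9003 to 17224 in WT HFD, 6210 to 10596 in ob/ob ND and 7926 to 11620 in ob/ob HFD, with 8 of 8 rising after HFD in WT. All 10 endothelial markers fell with HFD in WT, and the 5 hepatocyte markers summed to 1678 to 3265 CPM in WT ND against 18.8 to 230 elsewhere. The part of these shifts in Npr1, Npr2 and Npr3 was not tested.

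Genes linked to cGMP were read from 2 lists in WT fat after HFD. Of 14 cGMP signalling genes, 2 rose and 5 fell, a share of 50% that is under the 58.9% of all genes called (median -0.16 against -0.04 over all genes). Among them were Pde3b, a phosphodiesterase of fat cells, at -2.12, Gucy1a1, a subunit of the nitric oxide-sensitive guanylyl cyclase, at -1.13, and Abcc4 at 1.88 on the log2 scale. Of 6 tested fat genes listed as linked to cGMP, 1 rose and 4 fell, beside 58.9% of all genes called (median -1.38). Whether their transcripts respond to cGMP was not tested. The 4 that fell were the lipases Pnpla2 (-2.16) and Lipe (-2.59), the droplet protein gene Plin1 (-2.53) and the lipase co-activator gene Abhd5 (-0.60), with edgeR adjusted p from 6.1e-05 to 0.00088. Lipe, Pnpla2 and Plin1 are also in the adipocyte marker list. Genes closest to Npr1 over the 12 fat libraries, of 12338, were Gprasp1 (r = 0.976, rho = 0.937), Sh3bp4 (r = 0.975, rho = 0.951) and Cdon (r = 0.974, rho = 0.972). Closest to Npr3 were Slc24a3 (r = 0.997, rho = 0.986), the caveolin gene Cav1 (r = 0.993, rho = 0.979) and Prkar2b (r = 0.991, rho = 0.972), a regulatory subunit of protein kinase A.

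In aorta, Npr3 was higher in ob/ob than in WT mice on either diet, and higher after HFD in WT mice. It held 27.9, 17.5 and 22.2 CPM in WT ND, 163, 179 and 135 CPM in WT HFD, 591, 613 and 932 CPM in ob/ob ND and 651, 557 and 797 CPM in ob/ob HFD. The WT ND, WT HFD and ob/ob aortas formed 3 levels with no overlap. Npr3 was 31.6-fold higher in ob/ob on ND (log2 difference 4.98 ± 0.26, edgeR adjusted p = 3.3e-07), 4.20-fold higher in ob/ob on HFD (2.07 ± 0.22, edgeR adjusted p = 0.00024) and 7.06-fold higher after HFD in WT (2.82 ± 0.23, edgeR adjusted p = 8.0e-05). In ob/ob aortas HFD and ND differed by -0.09 (edgeR adjusted p = 1.0), and the diet difference depended on genotype (-2.91 ± 0.31, edgeR adjusted p = 0.0011). No single library ended any of these calls.

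The cyclase receptors moved less in aorta, and in opposite directions. Npr1 held 62.2, 82.3 and 72.1 CPM in WT ND, 55.9, 71.7 and 55.9 CPM in WT HFD, 44.3, 50.9 and 38.9 CPM in ob/ob ND and 47.02, 58.6 and 46.998 CPM in ob/ob HFD. On ND the genotypes did not overlap, and on HFD they did. Npr1 fell by 0.48 ± 0.11 averaged over diets (edgeR adjusted p = 0.0041) and by 0.69 ± 0.15 on ND (edgeR adjusted p = 0.0057). Npr2 held 16.7, 14.7 and 16.3 CPM in WT ND, 19.02, 21.7 and 22.8 CPM in WT HFD, 20.5, 26.4 and 25.7 CPM in ob/ob ND and 23.4, 23.3 and 19.4 CPM in ob/ob HFD. The WT ND aortas were below all 9 others, and Npr2 rose by 0.33 ± 0.10 averaged over diets (edgeR adjusted p = 0.016) and by 0.61 ± 0.14 on ND (edgeR adjusted p = 0.0060).

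Nppa in aorta was high in WT ND alone, at 5.95, 8.83 and 10.2 CPM, against 0, 0.978 and 0 CPM in WT HFD, 0.0727, 0.639 and 0 CPM in ob/ob ND and 1.67, 0 and 0 CPM in ob/ob HFD. The fitted difference on ND was -5.23 ± 1.202 (edgeR adjusted p = 0.0068), and with so few counts outside WT ND its size is poorly set: it was -7.64 without the second and -4.57 without the third ob/ob ND aorta, and DESeq2 did not call it (adjusted p = 0.11). The WT diet difference (-4.52 ± 1.13, edgeR adjusted p = 0.042) was lost in DESeq2 (adjusted p = 0.28) and without any 1 of 6 aortas: WT ND 2 or 3, WT HFD 1 or 3, or ob/ob ND 1 or 3 (edgeR adjusted p up to 0.16). Without the second WT HFD aorta it was -9.81 (edgeR adjusted p = 0.044). The summed 8 atrial markers were 341 to 764 CPM in WT ND and 87.5 to 357 CPM in the other groups, 1 of the 8 being at 0 in all 12 aortas. These ranges overlapped, and as in heart the sum does not measure atrial muscle alone. Of these genes, Myl7 and Sln moved with Nppa. In WT ND, Myl7 held 74.8, 207 and 69.4 CPM and Sln 40.6, 108 and 36.2 CPM. The aortas with Nppa at 0.639, 0.978 and 1.67 CPM held Myl7 at 6.31, 29.7 and 45.6 CPM. Their Sln values were 6.07, 23.7 and 23.1 CPM. All remaining aortas held at most 1.54 CPM of Myl7 and 0.127 CPM of Sln. The part of atrial markers in the Nppa difference was not tested. Corin stayed at 1.74 CPM or less and was not called.

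Of the 5 natriuretic genes tested in aorta, 3 were called for genotype averaged over diets, where 39.6% of all genes were, 4 on ND (31.7%) and 1 on HFD (16.2%). HFD in WT gave 2 (4.21% of all genes) and its dependence on genotype gave 1, Npr3, against 0.427%. HFD in ob/ob aortas gave 0 of 5 (0 at an unadjusted p below 0.05, 0 in DESeq2) and 0.0% of all genes.

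The aorta libraries held markers of fat. The summed 10 adipocyte markers overlapped between all groups, at 18531 to 27287 CPM in WT ND, 22401 to 23279 in WT HFD, 19097 to 22990 in ob/ob ND and 20731 to 22902 in ob/ob HFD. The summed 6 brown adipocyte markers were 13182 to 17400 CPM in WT ND, 13295 to 15912 in WT HFD, 6584 to 10183 in ob/ob ND and 8332 to 10339 in ob/ob HFD, with 4 of 6 lower and 1 higher in ob/ob averaged over diets. The 8 smooth muscle markers, which define the vessel wall, summed to 568 to 1440 CPM in WT ND, 354 to 567 in WT HFD, 592 to 952 in ob/ob ND and 553 to 709 in ob/ob HFD, with 3 of 8 lower and 1 higher in ob/ob on ND and 3 of 8 lower after HFD in WT. The 7 mesothelial markers summed to 242 to 990 CPM in WT ND and 64.4 to 232 in the other groups, all 7 being lower in ob/ob on ND. The 8 cardiomyocyte markers summed to 128 to 539 CPM in WT ND and 22.2 to 172 in the other groups. Short genes were lower as a class in ob/ob aortas too. Averaged over diets, the median log2 difference was -0.37 over genes with under 1000 exonic bases and 0.11 over genes with 4000 or more. Nppa has 865 exonic bases, Npr1 4783, Npr2 4667 and Npr3 6927. The part of these shifts in Npr1, Npr2, Npr3 and Nppa was not tested. Lep, the leptin gene and 1 of the 10 adipocyte markers, tracked Npr3 most closely of 11485 genes over the 12 aortas (r = 0.996, rho = 0.965), followed by Prr32 (r = 0.994, rho = 0.965) and Slc5a7 (r = 0.990, rho = 0.960). Lep held 10.9, 10.3 and 9.52 CPM in WT ND, 152, 160 and 90.7 CPM in WT HFD, 1144, 1140 and 1845 CPM in ob/ob ND and 1087, 730 and 1551 CPM in ob/ob HFD. Its transcript is made in ob/ob mice too, so these counts do not check the genotype.

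Of the cGMP signalling genes, 11 were tested in aorta; averaged over diets 1, Vasp, a cGMP kinase substrate, rose and 3 fell in ob/ob, a share of 36.4% close to the 39.6% of all genes (median -0.27 against -0.01 over all genes). The 3 were Mrvi1 (-0.57), another kinase substrate, the exporter gene Abcc4 (-0.49) and Pde9a (-0.66), a cGMP phosphodiesterase. Of the 7 fat genes listed as linked to cGMP, Ppargc1a rose by 1.35 and Ucp1, the uncoupling protein of brown fat, and Abhd5 fell by 0.81 and 0.33 on the log2 scale, 42.9% of the list beside the same 39.6%. Among the processing genes Pcsk6 fell by 0.28 (edgeR adjusted p = 0.020) and the other 2 tested were not called.

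In skeletal muscle, Npr3 was low in WT ND and spread widely elsewhere. It held 6.95, 29.4 and 81.5 CPM in WT ND, 360, 449 and 244 CPM in WT HFD, 928, 756 and 956 CPM in ob/ob ND and 216, 1289 and 832 CPM in ob/ob HFD. WT ND lay below all 9 others, and the first ob/ob HFD muscle lay below the WT HFD range. Npr3 was 7.05-fold higher in ob/ob averaged over diets (log2 difference 2.82 ± 0.56, edgeR adjusted p = 0.0036) and 22.4-fold higher on ND (4.48 ± 0.86, edgeR adjusted p = 0.0041), or 5.60 on the log2 scale without the third WT ND muscle. After HFD in WT the difference of 3.16 ± 0.81 did not pass in edgeR (adjusted p = 0.10) and was called by DESeq2 (adjusted p = 0.0017) and in edgeR without the first ob/ob HFD muscle (adjusted p = 0.014).

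Nppc, encoding CNP, and Npr2, its receptor, were lower in ob/ob muscle in CPM. In TPM, Npr2 averaged 13.3 in WT ND, 16.6 in WT HFD, 16.7 in ob/ob ND and 15.9 in ob/ob HFD. The Npr2 difference on ND therefore depended on the scale used, and the cause was not tested. Nppc held 1.41, 1.42 and 1.56 CPM in WT ND, 0.433, 0.371 and 1.06 CPM in WT HFD, 0.374, 0.184 and 0.192 CPM in ob/ob ND and 0.220, 0.0532 and 0.363 CPM in ob/ob HFD, which rests on 1 to 18 counts per library. WT ND lay above all others, and only the ob/ob ND value of 0.374 reached the WT HFD range. Nppc fell by 2.01 ± 0.42 averaged over diets (edgeR adjusted p = 0.0043) and by 2.51 ± 0.57 on ND (edgeR adjusted p = 0.0075). Npr2 held 31.3, 45.6 and 36.9 CPM in WT ND, 36.2, 36.4 and 43.7 CPM in WT HFD, 29.98, 28.2 and 24.5 CPM in ob/ob ND and 31.5, 26.6 and 25.1 CPM in ob/ob HFD. The genotypes overlapped only at 31.3 and 31.5 CPM, and Npr2 fell by 0.47 ± 0.12 averaged over diets (edgeR adjusted p = 0.0098). On ND alone it fell by 0.46 ± 0.17 (edgeR adjusted p = 0.046), a call that ended without any 1 of 9 muscles, that is, all but WT ND 1, ob/ob HFD 1 and ob/ob HFD 2 (adjusted p up to 0.17). Npr1 ran from 12.98 to 26.6 CPM and was not called (0.27 ± 0.17, edgeR adjusted p = 0.19), though it was without the first ob/ob HFD muscle (0.39, edgeR adjusted p = 0.011). In TPM, Npr1 averaged 5.51 in WT ND, 8.58 in WT HFD, 13.8 in ob/ob ND and 12.5 in ob/ob HFD. The size of its difference therefore also depended on the scale used.

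Of the 4 natriuretic genes tested in muscle, 3 were called averaged over diets (48.6% of all genes) and 3 on ND (45%). On HFD, 0 of 4 were called (2 at an unadjusted p below 0.05, 0 in DESeq2; background 0.0194%), Npr2 passing without the first ob/ob HFD muscle (-0.59, edgeR adjusted p = 0.025). HFD against ND gave 0 of 4 in WT (2 unadjusted, 1 in DESeq2) and 0 of 4 in ob/ob (0 unadjusted, 0 in DESeq2), and its dependence on genotype gave 0 of 4 (1 unadjusted, 0 in DESeq2); each of these backgrounds was 0.0%.

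Fat markers moved with Npr3 in muscle. The summed adipocyte markers were 918 to 3278 CPM in WT ND, 7070 to 11875 in WT HFD, 14458 to 19602 in ob/ob ND and 4864 to 27449 in ob/ob HFD, with 8 of 10 higher in ob/ob averaged over diets and 1 lower. The summed 9 fibre markers were 134430 to 290960 CPM in WT ND, 107060 to 132570 in WT HFD, 32064 to 75491 in ob/ob ND and 5843 to 152970 in ob/ob HFD, but only 1 of 9 was called lower averaged over diets and 0 on ND. Short genes were lower as a class in ob/ob muscle. The median log2 difference was -0.34 under 1000 exonic bases, -0.15 from 1000 to under 2000 and 0.08 at 4000 or more. Nppc has 1042 exonic bases, Npr1 4783, Npr2 4667 and Npr3 6927. The part of gene length in the muscle values was not tested. The genes closest to Npr3 over the 12 muscles, of 11813, were Car5b (r = 0.997, rho = 0.993), Tmem179 (r = 0.997, rho = 0.993) and Prkar2b (r = 0.996, rho = 0.993), the last also among the 3 closest in fat. Of the list of 5 processing genes, Mme rose by 1.54 (edgeR adjusted p = 0.0037) and Furin by 0.45 (edgeR adjusted p = 0.012). Ostn, encoding the muscle hormone osteocrin, which binds NPR3, held 152, 124 and 99.0 CPM in WT ND, 73.6, 158 and 144 CPM in WT HFD, 7.16, 64.2 and 9.13 CPM in ob/ob ND and 99.8, 0.319 and 24.7 CPM in ob/ob HFD. Its difference of -1.91 did not pass (edgeR adjusted p = 0.089). Of 13 tested cGMP signalling genes, 2 rose, Pde3b by 1.83 (edgeR adjusted p = 0.0090) and Pde9a by 0.72, and Abcc4 fell by 0.30. That is 23.1% of the list, under the 48.6% of all genes.

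Npr3 was also set against the adipocyte markers of the same library, as Npr3 counts per 1000 counts of the 10 markers, a comparison added after the values above were seen. In aorta the ratio was 1.12, 0.942 and 0.813 in WT ND, 7.11, 8.002 and 5.81 in WT HFD, 25.7, 32.1 and 45.7 in ob/ob ND and 28.4, 26.9 and 35.5 in ob/ob HFD. In fat it was 33.02, 33.7 and 30.2 in WT ND, 40.7, 48.4 and 45.01 in WT HFD, 61.7, 60.5 and 69.9 in ob/ob ND and 56.5, 46.4 and 55.1 in ob/ob HFD. In muscle it was 7.57, 14.97 and 24.9 in WT ND, 33.98, 37.8 and 34.5 in WT HFD, 51.8, 52.3 and 48.8 in ob/ob ND and 44.4, 46.95 and 45.1 in ob/ob HFD. Every WT ND library was below every WT HFD library in all 3 tissues. In fat this rise of the ratio after HFD in WT (log2 difference 0.47) was opposite to the fall of Npr3 in CPM. Every ob/ob library was above every WT library in aorta and muscle, while in fat 1 ob/ob HFD library fell within the WT HFD range.

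Averaged over diets, the ratio was 12.4-fold higher in ob/ob aorta (exact two-sided permutation of genotype within diet, p = 0.005, the smallest the 400 permutations allow; adjusted over 3 tissues 0.0075). It was 2.15-fold higher in muscle (exact p = 0.005, adjusted 0.0075) and 1.53-fold higher in fat (exact p = 0.01, adjusted 0.01). Npr3 itself was 11.5-fold higher in aorta and 7.05-fold higher in muscle. Brown adipocyte markers and Lep also shifted in aorta. The part of the amount or type of fat in Npr3 and in these ratios was not tested. Lep is 1 of the 10 markers; without it the ratios were 13.1, 2.35 and 1.68-fold higher in aorta, muscle and fat, and against Plin1 alone 10.5, 1.48 and 1.49-fold. In fat the Plin1 ratio gave an exact permutation p of 0.035 (adjusted 0.035). On HFD its ob/ob values, 1154.5 to 1194 per 1000 counts of Plin1, lay within the WT range of 955 to 1299.

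**Figure D4:**
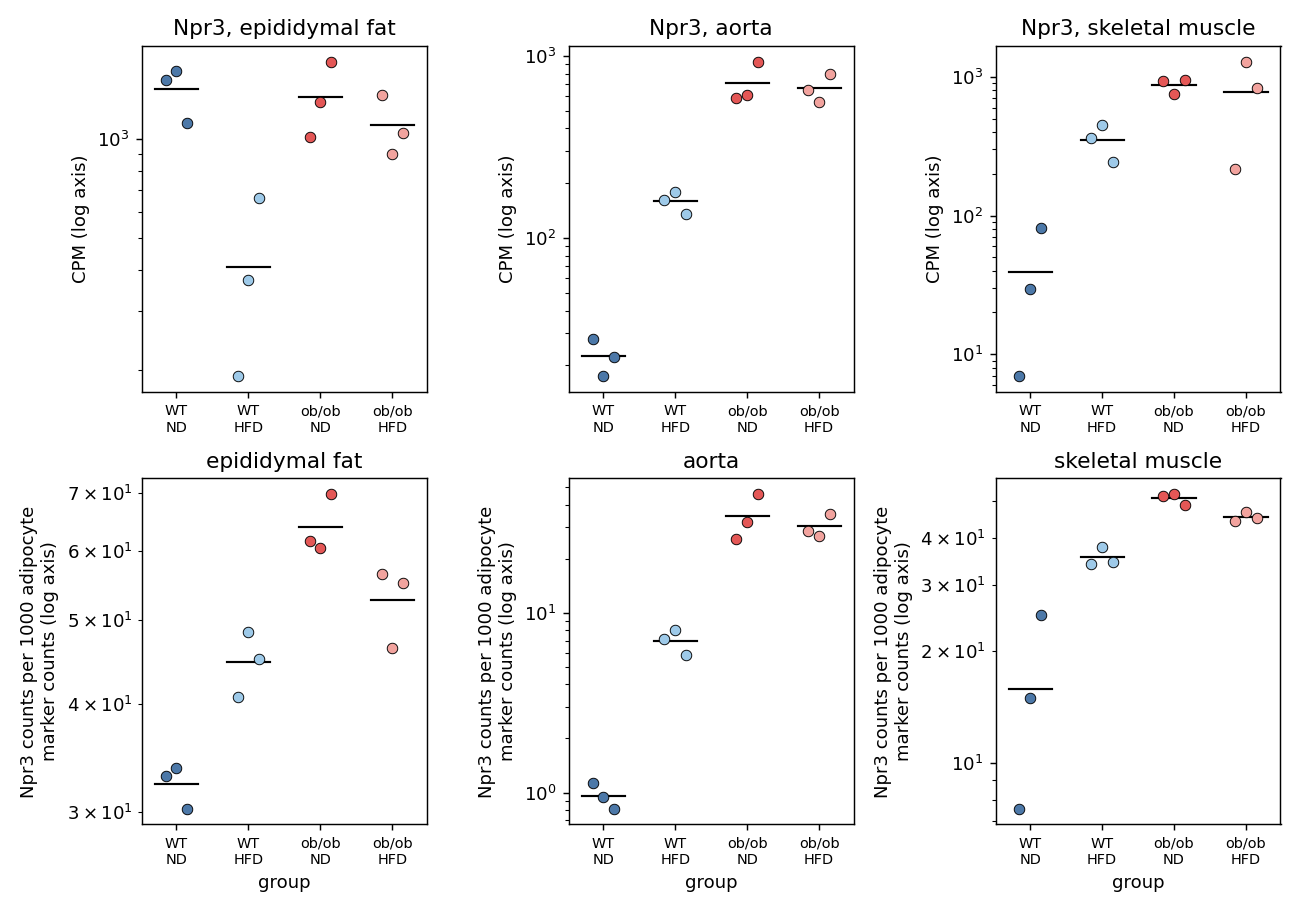
Npr3 in epididymal fat, aorta and skeletal muscle, as CPM (top, log axes) and as Npr3 counts per 1000 counts of 10 adipocyte markers (bottom, log axes), 1 point per mouse and a bar at the mean of each group (n = 3). In aorta both scales climb from WT ND (17.5 to 27.9 CPM) through WT HFD (135 to 179 CPM) to ob/ob (557 to 932 CPM).

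The ratio of Npr1 to Npr3, both in TPM, compares the signalling with the clearance receptor, and was likewise added after the values were seen. In aorta it was 3.22, 6.83 and 4.70 in WT ND, 0.497, 0.579 and 0.599 in WT HFD, 0.109, 0.120 and 0.0604 in ob/ob ND and 0.105, 0.152 and 0.0854 in ob/ob HFD. Only the WT ND aortas held more Npr1 than Npr3, and genotypes did not overlap. The ratio was 15.98-fold lower in ob/ob aorta (exact two-sided permutation, p = 0.005, adjusted over 7 tissues 0.0175).

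In fat the ratio was below 1 in every library, at 0.0760, 0.0612 and 0.168 in WT ND, 0.221, 0.136 and 0.127 in WT HFD, 0.0374, 0.0469 and 0.0247 in ob/ob ND and 0.0298, 0.0425 and 0.0457 in ob/ob HFD. Every ob/ob library was below every WT library, and the ratio was 3.25-fold lower in ob/ob (exact permutation p = 0.005, adjusted 0.0175). In muscle it was 3.22, 0.724 and 0.320 in WT ND, 0.0852, 0.0725 and 0.104 in WT HFD, 0.0394, 0.0381 and 0.0365 in ob/ob ND and 0.0870, 0.0299 and 0.0388 in ob/ob HFD, 6.65-fold lower in ob/ob (exact permutation p = 0.015, adjusted 0.035). WT ND spanned a wide range in muscle, and the first ob/ob HFD muscle lay within WT HFD. The summed adipocyte markers in muscle were 918 to 3278 CPM in WT ND and 14458 to 19602 CPM in ob/ob ND. The part of cell composition in the ratios of aorta, fat and muscle was not tested. In heart, liver, hippocampus and hypothalamus the ratio did not pass (exact permutation p from 0.315 to 0.845; adjusted from 0.511 to 0.845).

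**Figure D5:**
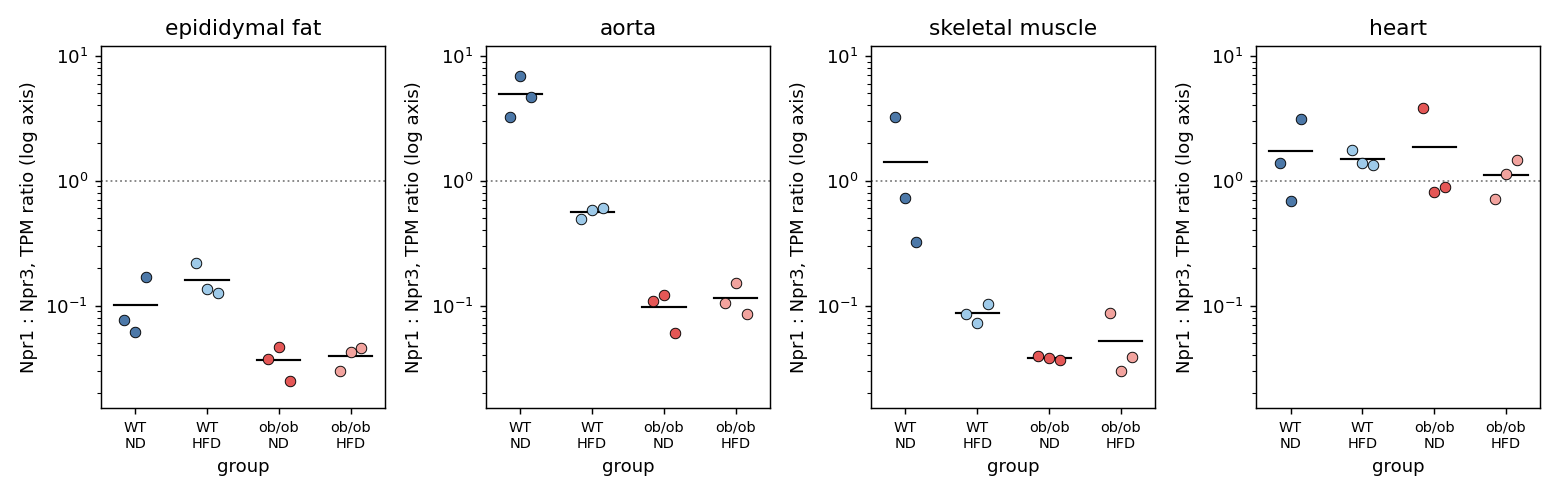
Ratio of Npr1 to Npr3 in TPM (log axes, dotted line at 1) in epididymal fat, aorta, skeletal muscle and heart, 1 point per mouse and a bar at the group mean (n = 3). Aorta drops from 3.22 to 6.83 in WT ND to at most 0.152 in ob/ob mice, fat stays below 1 throughout, and heart shows no separation.

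In liver, Npr2 was lower and Corin higher in ob/ob mice. Npr2 held 64.6, 57.8 and 68.1 CPM in WT ND, 40.3, 31.02 and 51.02 CPM in WT HFD, 12.6, 16.8 and 8.56 CPM in ob/ob ND and 25.7, 17.7 and 19.7 CPM in ob/ob HFD. Every ob/ob liver was below every WT liver. Npr2 was 3.11-fold lower averaged over diets (log2 difference -1.64 ± 0.15, edgeR adjusted p = 4.2e-06), 5.02-fold lower on ND (-2.33 ± 0.22, edgeR adjusted p = 7.1e-06) and 1.93-fold lower on HFD (-0.95 ± 0.21, edgeR adjusted p = 0.0084). After HFD in WT it fell by 0.64 ± 0.21 (edgeR adjusted p = 0.040), a call lost without any 1 of 6 livers: WT ND 1, 2 or 3, WT HFD 1 or 2, or ob/ob ND 1 (adjusted p up to 0.15). The diet difference depended on genotype (1.38 ± 0.31, edgeR adjusted p = 0.019).

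Corin in liver was at 0.0864, 0.347 and 0.380 CPM in WT ND, which is 1 to 4 counts per library, 2.56, 3.81 and 1.55 CPM in WT HFD, 9.92, 8.08 and 4.21 CPM in ob/ob ND and 2.69, 5.28 and 7.79 CPM in ob/ob HFD. WT ND lay below all others, and the ob/ob HFD and WT HFD ranges overlapped. Corin rose by 2.85 ± 0.38 averaged over diets (edgeR adjusted p = 5.9e-05), by 4.74 ± 0.61 on ND (edgeR adjusted p = 6.3e-05) and after HFD in WT by 3.28 ± 0.68 (edgeR adjusted p = 0.0048). The diet difference depended on genotype (-3.77 ± 0.79, edgeR adjusted p = 0.014), and genotype on HFD did not pass (0.97 ± 0.42, edgeR adjusted p = 0.13) except without the first ob/ob HFD liver (1.28, edgeR adjusted p = 0.042). Even in ob/ob the liver level stayed far below heart, where Corin held 80.01 to 128 CPM.

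Npr1 in liver fell by 0.47 ± 0.16 averaged over diets (edgeR adjusted p = 0.034), within overlapping ranges and with the call lost without any 1 of 8 livers: WT ND 1 or 2, WT HFD 1 or 2, ob/ob ND 1 or 3, or ob/ob HFD 1 or 2 (adjusted p up to 0.098). Npr3, at 0.895 to 4.85 CPM, differed by 0.08 (edgeR adjusted p = 0.87). Of 4 genes tested, 3 were called averaged over diets (42.8% of all genes), 2 on ND (36.4%), 1 on HFD (18.5%), 2 for HFD in WT (21.8%) and 2 for the dependence of diet on genotype (6.17%). HFD in ob/ob livers gave 0 of 4 (2 at an unadjusted p below 0.05, 0 in DESeq2; background 0.913%). The 5 hepatocyte markers summed to 109500 to 119070 CPM in WT ND, 82207 to 93140 in WT HFD, 87566 to 94507 in ob/ob ND and 63892 to 91971 in ob/ob HFD, and the adipocyte markers to 131 to 152, 283 to 400, 522 to 752 and 466 to 566 CPM. Their part in Npr2 and Corin was not tested.

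In the brain regions few differences were seen. Hippocampal Npr2 fell by 0.22 ± 0.06 averaged over diets (edgeR adjusted p = 0.044), from 36.2 to 40.8 CPM in WT to 30.6 to 39.1 CPM in ob/ob, and the call was lost without any 1 of 10 libraries, all but WT HFD 3 and ob/ob ND 2 (adjusted p up to 0.11). It was 1 of 4 genes tested, with 13.9% of all genes called. In hypothalamus 0 of 6 were called in edgeR (3 at an unadjusted p below 0.05, 0 in DESeq2; background 15.5%). Without the first WT ND hypothalamus, Nppa (1.88, edgeR adjusted p = 0.017) and Npr1 (0.92, edgeR adjusted p = 0.014) passed. Nppc, the main peptide of both regions, ran from 1.88 to 3.56 CPM in hypothalamus, with a log2 difference between genotypes of -0.17 ± 0.17 (edgeR adjusted p = 0.54). The choroid plexus gene Ttr ran from 22.9 to 7631 CPM in hippocampus, and its part in the hippocampal values was not tested.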

How the data were processed

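RNA of 7 tissues from 12 mice was sequenced; the labels' extraction protocol (TRIzol, TruSeq) names hearts only. The deposited file holds whole-number read counts per gene. Per the submitters' processing notes, Trimmomatic 0.36, HISAT2 2.0.5 and featureCounts 1.5.0-p2 were used with GRCm38; per the file headers, featureCounts 1.5.1 counted read pairs over exons with no strand option and no option for reads that overlap several genes. Symbols matched 49326 of 49671 gene identifiers, and no column was left unmapped to a sample.

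From these counts, each tissue's 12 libraries were fitted with 4 group means in edgeR 4.0.16 (R 4.3.3; filterByExpr with a minimum count of 10 and total of 15, TMM scaling, quasi-likelihood test, Benjamini-Hochberg, threshold 0.05). The alternatives were DESeq2 1.42.0 as the test, DESeq2 scaling inside the edgeR fit, all genes unfiltered, a replicate block, and leaving out each library. The procedure was tested on simulated counts. CPM used TMM-scaled library sizes, and TPM the exon lengths of the count table. Ratios were tested by exact two-sided permutation of genotype within diet (scipy 1.17.1).

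The members and lists were chosen with earlier results of these data known. Named were all 7 members, up to 4 genes per pathway list with the smallest p, defining markers, and the 3 named genes closest by Pearson correlation of log2 CPM (prior count 2, average log2 CPM of at least 1). The deposited weights and blood values were not used. RefSeq promoters and GENCODE transcripts gave the sequences.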

Additional observations from a re-analysis of the deposited data

Results flagged for a closer look

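In all, 5 differences between HFD and ND depended on genotype, by edgeR's interaction test over 3 mice per group; each is given as the log2 diet difference in ob/ob minus that in WT. In epididymal fat it was 2.11 for Npr2 (adjusted p = 0.0024), which fell after HFD in WT, and 1.504 for Npr3 (adjusted p = 0.040). In aorta it was -2.91 for Npr3 (adjusted p = 0.0011), which rose after HFD in WT. In liver it was 1.38 for Npr2 (adjusted p = 0.019), which fell after HFD in WT, and -3.77 for Corin (adjusted p = 0.014), which rose after HFD in WT. In ob/ob mice the diet difference of each of these genes did not pass in edgeR, and groups of 3 were too small to test single libraries as outliers.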

How the results depend on the processing

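Of the 39 calls of the 7 genes over the tissues and contrasts, DESeq2 size factors in edgeR kept 39, DESeq2 kept 37, and edgeR without a filter kept 37 (losing Npr2 in hippocampus and in muscle on ND); none of these reversed, and 32 held in every fit that left out 1 library. Mouse numbers restart in each group and pair no animals: deviations of same-numbered mice correlated at a mean r of -0.103 to 0.0495 over the tissues. With the number as a replicate block 36 calls were kept, and Npr2 was lost in muscle on ND (adjusted p = 0.074), in liver for HFD in WT (adjusted p = 0.055) and in hippocampus (adjusted p = 0.074). Natriuretic genes called averaged over diets went in heart from 1 to 2 without a filter (1 to 2 leaving out libraries) and in fat from 1 to 3 in DESeq2 and 2 without a filter (1 to 2 leaving out libraries). For HFD in WT they went in heart from 0 to 1 without a filter, in aorta from 2 to 1 in DESeq2 (1 to 2 leaving out libraries) and in muscle from 0 to 1 in DESeq2 and without a filter (0 to 1 leaving out libraries). Over all genes, calls for HFD in WT moved from 621 to 1176 in DESeq2 and 1702 without a filter in aorta, from 35 to 78 and 343 in heart, and from 0 to 838 and 357 in muscle; for genotype on HFD in muscle from 3 to 568 and 13; for the dependence on genotype from 63 to 318 and 760 in aorta. For HFD in ob/ob they moved from 121 to 298 and 976 in liver, from 3 to 28 and 360 in heart and from 0 to 14 and 68 in aorta, and in fat from 0 to 16 in DESeq2. The dependence on genotype moved from 0 to 2 and 177 in heart and from 0 to 66 and 1 in muscle, and in liver from 817 to 1496 without a filter; the block moved HFD in ob/ob heart from 3 to 9 and genotype on HFD in muscle from 3 to 1. Leaving out 1 library moved HFD in WT aorta from 621 to between 169 and 1494. The cause was not tested. On CPM per kilobase without mitochondrial genes, the Npr1 level in fat over aorta reversed to 0.677. A planned comparison of heart weight was not run, since the weights table used here has no heart weight. At these depths genes with a few counts, such as Nppc in muscle, Corin in WT ND liver and Nppa in aorta, have poorly set folds.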
